A study of Mus musculus with 8 samples.

Results

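The granule genes of neutrophils and their precursors were followed in bone marrow progenitors, in hepatocytes recovered after transplantation of those progenitors, and in primary hepatocytes. The 10 genes were Mpo, Elane, Prtn3, Ctsg, Ltf, Camp, Ngp, S100a8, S100a9 and Lyz2, taken by their gene names from the array annotation, and they were 10 of 63329 gene or transcript names on the arrays. All 10 were represented on both array designs, by 13 probes on the first design and 12 probes on the second. RNA was hybridised to 8 single-colour Agilent arrays, 2 for each of 4 groups.

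Lin- BM cells were bone marrow cells of female C57Bl6/J mice that carried an eGFP transgene. They were depleted with magnetic beads of cells that carry lineage markers, among them CD11b and Ly-6G/C (Gr-1), which are surface markers of maturing granulocytes. BM-derived hepatocytes were eGFP-positive cells sorted by flow cytometry from the perfused livers of recipients 1 month or 5 months after transplantation. The recipients were male mice deficient in coagulation factor VIII (hemophilia A) on a mixed B6;129S4 background, which had received acetaminophen to injure the liver and then eGFP Lin- BM cells through the tail vein. The controls of the liver were primary hepatocytes, whose donor strain is not given in the sources used here. The legend of the study's expression comparison describes repeated experiments, each on the pooled cells of several mice. The p-values therefore measure the spread between the arrays of such pools, not between single animals. Lin- BM cells (replicates 3 and 4) and 1-month hepatocytes (replicates 1 and 2) lay on one slide, and primary hepatocytes (replicates 2 and 4) and 5-month hepatocytes (replicates 1 and 3) on a second slide of another design that was scanned on another day.

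Neutrophils are built in the marrow from promyelocytes through myelocytes to segmented cells, and they fill their granules in that order. Myeloperoxidase (Mpo), neutrophil elastase (Elane), proteinase 3 (Prtn3) and cathepsin G (Ctsg) are made early and packed into primary, or azurophil, granules. Lactoferrin (Ltf), cathelicidin (Camp) and neutrophilic granule protein (Ngp) are made later and fill the secondary granules, while S100a8 and S100a9 form calprotectin, the most abundant protein pair of the neutrophil cytosol. Lyz2 encodes lysozyme M, which neutrophils share with monocytes and macrophages, including those of the liver. The arrays report the RNA of all cells in a sample. In bulk samples of this kind, fewer cells of a type and less RNA per cell cannot be told apart.

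The promoters of the 4 azurophil granule genes hold a short ETS-type motif, AGGAAGT, of the kind that PU.1 binds. They are shown because these genes share an early time of expression and carried the tightest values between the arrays of Lin- BM cells. Each stretch of 80 bases upstream of the RefSeq gene start (GRCm38.p6) is printed in the direction of the gene, with AGGAAGT and the MYB-type motif CAACGG in capitals.
Mpo: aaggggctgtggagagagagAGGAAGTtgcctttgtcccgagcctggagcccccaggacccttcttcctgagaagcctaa
Elane: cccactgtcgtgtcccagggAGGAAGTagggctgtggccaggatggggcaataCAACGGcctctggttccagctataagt
Prtn3: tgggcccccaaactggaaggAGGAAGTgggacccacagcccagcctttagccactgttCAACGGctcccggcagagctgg
Ctsg: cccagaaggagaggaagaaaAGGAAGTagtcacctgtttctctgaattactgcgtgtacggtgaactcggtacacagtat
The stretches lie at chr11:87793541-87793620 (Mpo, plus strand), chr10:79886208-79886287 (Elane, plus strand), chr10:79879553-79879632 (Prtn3, plus strand) and chr14:56102721-56102800 (Ctsg, minus strand). Elane and Prtn3 are neighbours on chromosome 10, and both promoters also hold CAACGG downstream of AGGAAGT.

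All 10 genes were found in the RefSeq promoter table, and 4 motifs were searched on both strands in the 250 bases upstream of 32851 gene starts. AGGAAGT was present at 6 of the 10 genes (Mpo, Elane, Prtn3, Ctsg, S100a8 and Lyz2) and at 7.69% of all promoters. CAACGG was present at Elane and Prtn3 and at 4.05% of all promoters. The C/EBP-type motif TTGCNNAA was present at Ltf, Ngp and S100a9, which are later genes, and at 9.56% of all promoters. The TATA box letters TATAAA were present at Ctsg and S100a8 and at 12.4% of all promoters. The motifs were chosen after the sequences had been read, a match is a description of letters, and neither a match nor its absence says whether a factor binds.

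Probes of identical sequence on both designs allow a gene to be followed across the slides, and 6 of the 10 genes had one: Prtn3, Ctsg, Ltf, Ngp, S100a8 and Lyz2. The 60-base probes of 5 of them are given here because every comparison between the slides rests on them.
Prtn3: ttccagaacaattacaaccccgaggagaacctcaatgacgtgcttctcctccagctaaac
Ltf: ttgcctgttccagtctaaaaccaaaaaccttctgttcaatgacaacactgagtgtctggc
Ngp: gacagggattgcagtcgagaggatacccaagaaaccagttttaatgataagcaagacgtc
S100a8: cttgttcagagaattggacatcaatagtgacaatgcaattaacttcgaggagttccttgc
Lyz2: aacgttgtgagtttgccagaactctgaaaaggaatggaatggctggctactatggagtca
In mm9, the build of the array annotation, they lie at chr10:79343869-79344685 (Prtn3, plus strand), chr9:110942873-110942932 (Ltf, plus strand), chr9:110324266-110324814 (Ngp, plus strand), chr3:90473778-90473837 (S100a8, plus strand) and chr10:116719175-116719234 (Lyz2, minus strand). The Prtn3 and Ngp probes span 817 and 549 bases of the genome with their 60 bases, so that each crosses at least 1 intron, whereas the probes of Ltf, S100a8 and Lyz2 each lie in 1 unbroken stretch.

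On the 8 arrays, 47.7% to 58.6% of the spots were well above background by the scanner software, none was saturated, and the 1-month arrays were the dimmest, with upper quartiles of 75.5 and 89.5 against 122.2 to 193.4 on the others. Signals below are background-subtracted intensities in arbitrary units. They compare arrays for the same probe and never one probe with another. Log2 changes are differences between group means after the 75th percentile of each array had been subtracted, tested with limma, with the p-values of all genes adjusted after Benjamini-Hochberg. Called genes are those whose adjusted p was under 0.05 and whose log2 change exceeded 0.6 in size.

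The comparison of 1-month hepatocytes with the Lin- BM cells asked what remained of the donor cells' program in eGFP-positive liver cells. All 10 granule genes were lower in the 1-month hepatocytes, where 26.5% of the 28538 genes tested were called lower and 28.8% higher. For every one of them both 1-month arrays lay below both Lin- BM arrays, and the share of all genes with such a gap was not counted. The median log2 change of the 10 genes was -6.76, and -6.23 with 3 genes placed at their bounds, against 0.07 for all genes. Ltf, Camp, Ngp and S100a8 passed the filter on dim probes only through Lin- BM cells. The probes used for Mpo, Elane, Prtn3, Ctsg, S100a9 and Lyz2 were also well above background on both 1-month arrays. As it includes genes of the first kind, the count describes the 10 genes and does not support a direction. Hepatocyte genes moved the other way, with 10 of 10 listed genes called higher and Alb, which encodes albumin, at least 21240-fold higher.

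Among the azurophil granule genes, Mpo, the peroxidase that makes hypochlorous acid, had signals of 75430 and 64500 in Lin- BM cells and of 21.0 and 27.2 at 1 month. Its log2 change was -10.34 (SE 0.26, n = 2 and 2 arrays, limma adjusted p = 6.51e-05), the largest change of the 10 genes. The 2 arrays of each group were close to each other, and the Mpo signal was still well above background on both 1-month arrays. Ctsg, the chymotrypsin-like serine protease of the azurophil granule, was at 29110 and 18850 in Lin- BM cells and at 22.8 and 47.7 at 1 month. It fell by 8.30 (SE 0.40, limma adjusted p = 0.000267), and it too remained above background on both 1-month arrays.

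Prtn3, the proteinase known as the target of autoantibodies in vasculitis, gave 324 and 216 in Lin- BM cells and 12.96 and 24.9 at 1 month. Its change of -2.71 (SE 0.37, limma adjusted p = 0.00421) was the smallest of the 10. The groups did not overlap, but the signal of the dimmer Lin- BM array lay within an order of magnitude of the brighter 1-month array, which was not so for Mpo and Ctsg. Elane, the elastase that is mutated in inherited neutropenia, was measured by 2 probes on this design that overlap by 42 bases with 1 mismatch, given in capitals.
Elane, dimmer probe: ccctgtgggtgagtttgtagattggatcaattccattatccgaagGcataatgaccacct
Elane, brighter probe: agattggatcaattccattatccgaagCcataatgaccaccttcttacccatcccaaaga
The brighter probe gave 1848 and 1113 in Lin- BM cells and 30.3 and 21.6 at 1 month, a change of -4.64 (SE 0.39, limma adjusted p = 0.00116). The dimmer probe gave 539 and 306 in Lin- BM cells and was not well above background at 1 month, at least 25.4-fold lower (limma adjusted p = 0.000284 among single probes). Both probes showed the same order of the groups.

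The secondary granule genes were lower at 1 month as well, with a wide gap between the 2 Lin- BM arrays. Ltf, an iron-binding protein, gave 4679 on Lin- BM replicate 3 and 234 on replicate 4, and 7.02 and 8.73 at 1 month, where only replicate 2 was well above background. It fell by 5.89 on the log2 scale (SE 1.36, limma adjusted p = 0.0194). The second Ltf probe, at 1921 and 89.0 against 1.68 and 15.1, had the same order of groups. The Ltf call was lost without 1-month replicate 1 (adjusted p = 0.0839) or replicate 2 (adjusted p = 0.0805), and with the normexp background correction, where the change was -3.38.

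Camp, the precursor of the antimicrobial peptide cathelicidin, gave 5156 and 442 in Lin- BM cells and 2.85 and 1.97 at 1 month, not well above background. It was at least 94.4-fold lower (limma adjusted p = 0.00469). Ngp, a cystatin-like granule protein of myeloid precursors, gave 1042 and 70.5 in Lin- BM cells and 1.74 and 1.97 at 1 month, again not well above background. It was at least 16.9-fold lower (limma adjusted p = 0.0134), and this call was lost without 1-month replicate 1 (adjusted p = 0.0642) or replicate 2 (0.0647) and with normexp (0.197). For both genes even the dimmer Lin- BM array was far above the 1-month arrays.

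S100a8 and S100a9, the calcium-binding subunits of calprotectin, were both lower at 1 month. S100a8 gave 14860 and 1094 in Lin- BM cells and 3.12 and 4.70 at 1 month, not well above background, and was at least 252-fold lower (limma adjusted p = 0.00412). S100a9 gave 93110 and 17250 in Lin- BM cells and 129.5 and 75.5 at 1 month, well above background on both arrays. It fell by 7.49 on the log2 scale (SE 0.84, limma adjusted p = 0.0025). Lyz2, the lysozyme shared with macrophages, gave 24960 and 7668 in Lin- BM cells and 174.4 and 1412 at 1 month with its brighter probe. Its log2 change was -3.63 (SE 1.05, limma adjusted p = 0.037). The signal of the brighter 1-month array came within an order of magnitude of the dimmer Lin- BM array, as for Prtn3. The Lyz2 call was lost without Lin- BM replicate 3 (adjusted p = 0.161) or replicate 4 (0.0719), without 1-month replicate 1 (0.0972) and with no filter on dim probes (0.0548). With the methods' t-test 7 of the 10 genes passed without and 2 with the Benjamini-Hochberg adjustment.

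**Figure D1:**
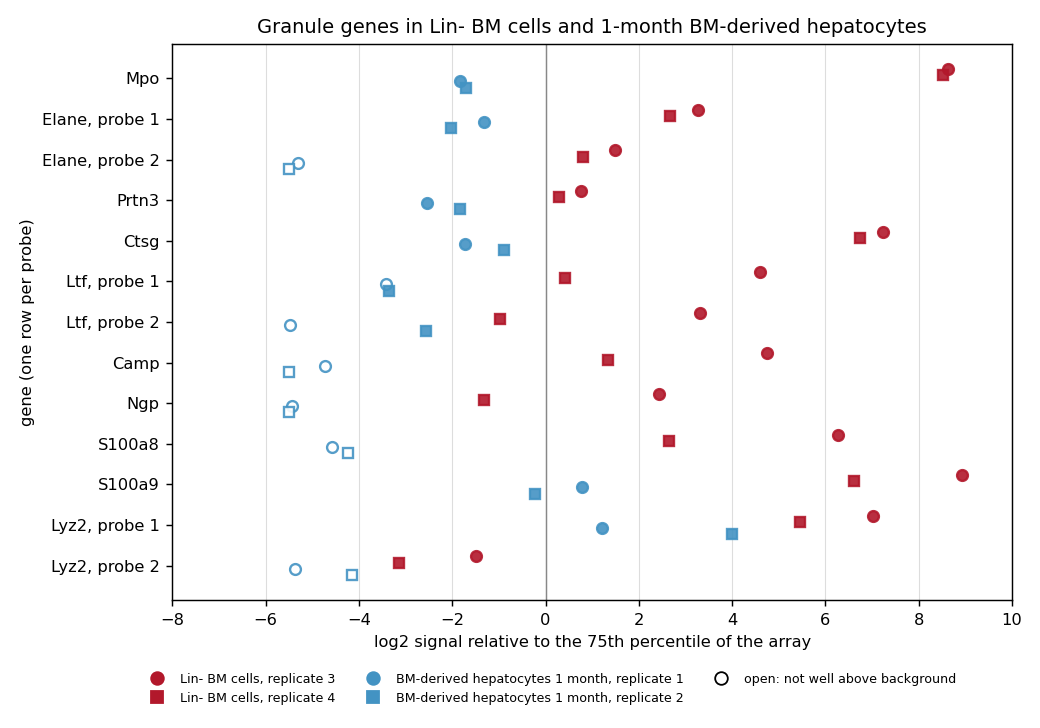
Log2 signal relative to the 75th percentile of the array for the probes of the 10 genes on the first slide, 1 row per probe, with 1 point per array of Lin- BM cells and 1-month hepatocytes and open points for spots not well above background. Lin- BM points lie above 1-month points in every row, from 8.62 and 8.52 against -1.83 and -1.70 for Mpo to 0.75 and 0.30 against -2.53 and -1.83 for Prtn3, and the Lin- BM pair is wide for Ltf, Camp, Ngp and S100a8.

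The 2 arrays of Lin- BM cells differed by gene class. Replicate 3 exceeded replicate 4 at all 13 probes of the 10 genes, with a median difference of 1.66 on the log2 scale, and by more than 2 at 6 probes, where 0.811% of 37226 probes did so. The azurophil genes differed least, with 0.10 for Mpo, 0.46 for Prtn3, 0.50 for Ctsg and 0.60 and 0.69 for the 2 Elane probes. The later genes differed most. The ratio of replicate 3 to replicate 4 was 4.94 for S100a9, 10.7 for Camp, 12.4 for S100a8, 13.5 for Ngp and 18.3 and 19.7 for the Ltf probes, while the Lyz2 probes differed by 1.57 and 1.66 on the log2 scale.

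Other genes of the secondary granule and of late neutrophils, listed with earlier results of these data known, were also brighter on replicate 3. Their 12 probes had a median difference of 3.69 between replicates 3 and 4, and 8 of the 12 exceeded 2. Among them, Lcn2, a siderophore-binding protein, was 28.5-fold brighter on replicate 3, Mmp8, the neutrophil collagenase, 17.2-fold, and Chil3, a chitinase-like protein, 15.4-fold. The other azurophil granule genes had a median of 0.33, the transcription factors of myeloid cells 0.36 and the pan-leukocyte genes 0.64. Macrophage genes had a median of -0.90, erythroid genes of -1.62 and stellate cell genes of -3.26, which were therefore brighter on replicate 4. The part of such cells in the differences of the granule genes was not tested. These are 2 arrays of 1 group, and the differences have no test.

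**Figure D2:**
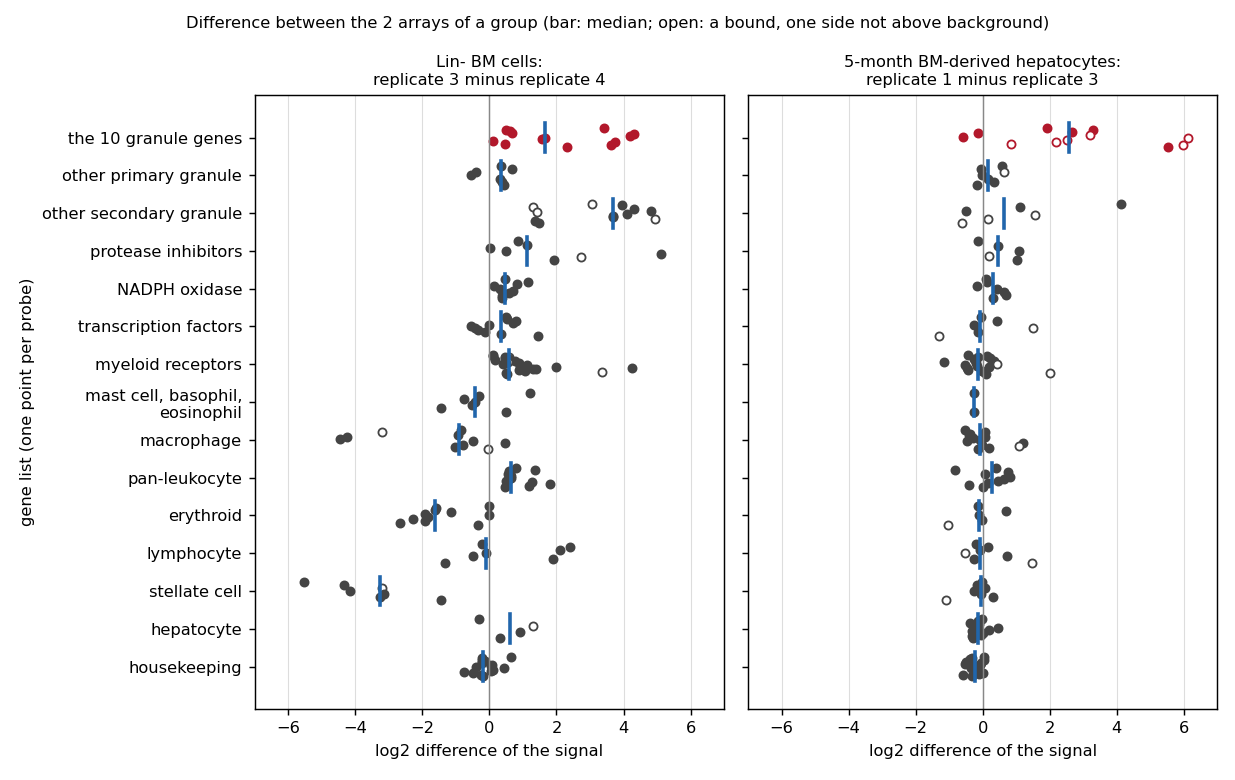
Log2 difference between the 2 arrays of a group, Lin- BM replicate 3 minus 4 on the left and 5-month replicate 1 minus 3 on the right, with 1 point per probe in rows of gene lists, bars for the median of a list, and open points where 1 side was not well above background and was raised to the lowest signal that was. The granule genes run from 0.10 (Mpo) to 4.30 (Ltf) in Lin- BM cells, near the other secondary granule genes at their upper end, and from -0.60 (Lyz2) to at least 6.11 (Mpo) at 5 months, where most other lists lie around 0.

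The comparison of 5-month hepatocytes with primary hepatocytes asked how far the sorted eGFP-positive cells differed from ordinary liver cells. None of the 7 granule genes that passed the filter on dim probes was called, where 0.186% of 19934 genes were called lower and 0.366% higher with limma. At an unadjusted p under 0.05, limma found 1 of the 7, Ctsg, and the methods' t-test found 0. The median log2 change of the 7 genes was 0.83 against 0.04 for all genes tested. Mpo, Ltf and Ngp did not pass the filter, since no group had both arrays well above background. The intervals were wide: with 2 arrays a group, the 95% interval for S100a9 ran from -2.91 to 7.15.

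The 2 arrays of 5-month hepatocytes differed for most of these genes. Mpo gave 3.90 and 2.63 in primary hepatocytes, and 583.7 on 5-month replicate 1 against 2.77 on replicate 3. Replicate 1 was the only array of the slide with Mpo well above background, and the second Mpo probe was also highest there (48.5 on replicate 1, and 1.44 to 1.65 elsewhere). Ltf gave 77.6 on replicate 1 and 1.86 to 4.57 elsewhere, and Ngp gave 38.3 on replicate 1 and 1.48 to 4.57 elsewhere, none of the other arrays being well above background. For these 3 genes the signal therefore rested on 1 array.

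S100a9 was detected in every hepatocyte array of the slide, at 274.5 and 193 in primary hepatocytes and at 6246 and 114.3 at 5 months. Its log2 change of 2.12 (SE 1.88, limma adjusted p = 0.667) became -0.63 without 5-month replicate 1. S100a8 gave 16.7 and 22.1 in primary hepatocytes and 533 and 6.89 at 5 months, a change of 1.90 (SE 2.05, limma adjusted p = 0.729) that became -1.10 without replicate 1. Both subunits of calprotectin were thus highest on replicate 1 and lowest on replicate 3, with primary hepatocytes between them. Camp gave 408.2 and 306.6 in primary hepatocytes and 1112 and 248.7 at 5 months with one probe, and 196.2 and 167.2 against 1229 and 104.4 with the other. The Camp change of 0.82 (SE 0.68, limma adjusted p = 0.643) became -0.13 without replicate 1.

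Ctsg gave 10.6 and 6.45 in primary hepatocytes and 193.9 and 25.8 at 5 months. It was the only one of the 7 with both 5-month arrays above both primary arrays by more than 1 on the log2 scale, with a change of 3.34 (SE 0.94, 95% interval 0.84 to 5.85, limma adjusted p = 0.266), which did not pass the threshold. Prtn3 gave 7.89 and 8.86 in primary hepatocytes and 15.8 and 7.43 at 5 months, and its groups overlapped in signal and nearly touched after scaling. Lyz2 gave 14.5 and 9.63 in primary hepatocytes and 15.8 and 19.9 at 5 months, a change of 0.83 (SE 0.31, 95% interval -0.01 to 1.68, limma adjusted p = 0.358). For Lyz2, and after scaling for Elane, replicate 3 was the brighter of the 5-month arrays, which held for no other of the 10 genes.

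Elane was bright in every sample of this slide, at 1162 and 2614 in primary hepatocytes and 1320 and 1218 at 5 months (change -0.21, SE 0.49, limma adjusted p = 0.883). Its probe on this design, at mm9 chr10:79350902-79350961, has another sequence than the 2 probes of the first design, of which the brighter gave 30.3 and 21.6 in 1-month hepatocytes. Whether the second probe reads Elane RNA in hepatocytes was not tested, and its level cannot be compared between the designs.

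**Figure D3:**
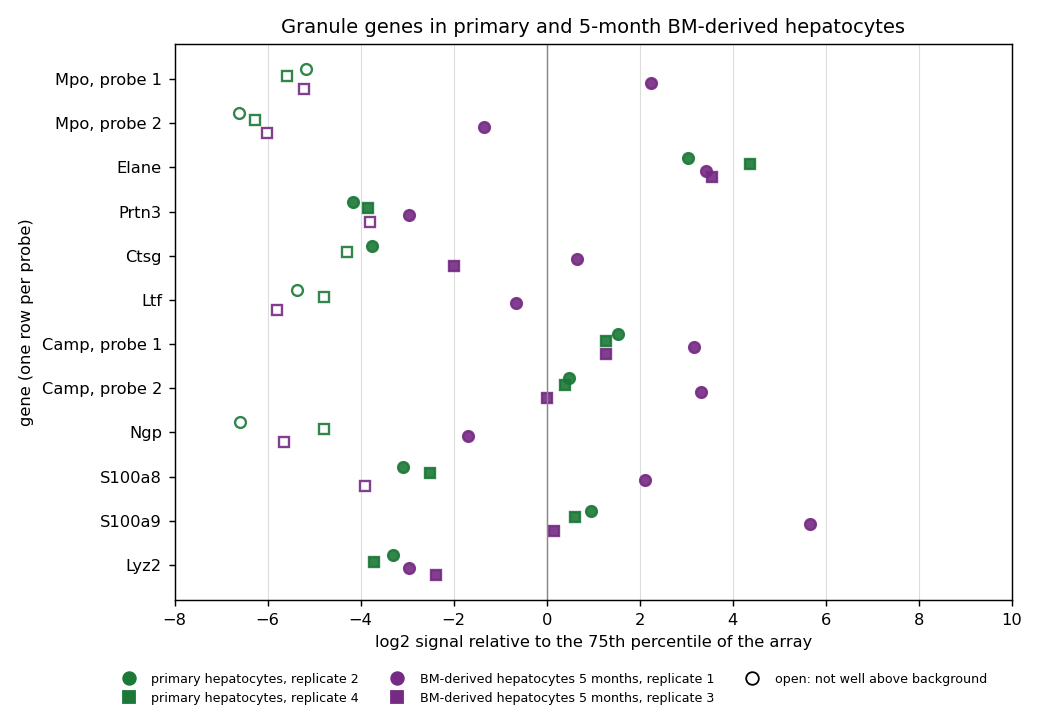
Log2 signal relative to the 75th percentile of the array for the probes of the 10 genes on the second slide, 1 row per probe, with 1 point per array of primary hepatocytes and 5-month hepatocytes and open points for spots not well above background. In 8 of the 12 rows 5-month replicate 1 stands above the other 3 arrays by more than 2, as for Mpo (2.24 against -5.59 to -5.18), while Elane and Lyz2 show no such gap.

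The whole second slide was searched for probes at which 1 array stood above the other 3. The signal of 5-month replicate 1 exceeded that of each of the other 3 arrays by more than 2 on the log2 scale at 43 of 31206 probes (0.138%), and 8 of the 43 were among the 12 probes of the 10 genes: both Mpo probes and a probe each of Camp, Ctsg, Ltf, Ngp, S100a8 and S100a9. On the other arrays of the slide, 41 to 116 probes stood out in the same way, and 0 of them were granule gene probes. Replicate 1 exceeded the next brightest array 69.1-fold for Mpo, 26.2-fold for S100a9, 24.7-fold for S100a8, 9.18-fold for Ltf and 6.29-fold for Ctsg, with dim values raised to the lowest signal above background. For Prtn3 the ratio was 1.78, and for Elane and Lyz2 it was 0.517 and 0.661, so that another array was brighter.

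Between the 2 arrays at 5 months, the 12 probes had a median difference of 2.59 on the log2 scale, against -0.06 for 28676 probes, and 8 of the 12 exceeded 2, where 0.244% of all probes did. Replicate 1 exceeded replicate 3 at least 69.1-fold for Mpo and at least 63.1-fold for S100a8, which were not well above background on replicate 3, and 45.7-fold for S100a9. Lists of other leukocyte genes had smaller median differences. The median difference was 0.28 for 10 pan-leukocyte probes, of which 8 were higher on replicate 1, -0.09 for 13 macrophage probes, 0.16 for 7 probes of other azurophil granule genes and 0.63 for 6 probes of other secondary granule genes. Of the latter only Chil3 exceeded 2, at 17.4-fold, while Mmp8, well above background on only 1 of the 2 arrays, gave a bound. The 19 probes of myeloid receptors had a median of -0.14, and 1 of them exceeded 2, at 2.01. What set replicate 1 apart was not tested.

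The 6 genes with a probe on both designs placed the 4 groups on 1 scale, as log2 levels relative to the 75th percentile of the shared probes. Slide, array design and scan day differ together, so that they cannot be told apart from the groups in comparisons across the slides, and all 4 of these comparisons reuse arrays. Ctsg levels were 5.87 and 5.22 in Lin- BM cells, -3.16 and -2.29 at 1 month, -0.97 and -3.67 at 5 months, and -5.45 and -5.96 in primary hepatocytes. The order of the group means was Lin- BM cells, 5 months, 1 month and primary hepatocytes, and the arrays at 1 and 5 months overlapped. Prtn3 levels were -0.62 and -1.22 in Lin- BM cells, -3.98 and -3.22 at 1 month, -4.59 and -5.47 at 5 months, and -5.87 and -5.51 in primary hepatocytes. Prtn3 thus stepped down from Lin- BM cells to 1 month, and the 5-month arrays lay between the 1-month arrays and primary hepatocytes.

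S100a8 levels were 4.90 and 1.12 in Lin- BM cells, -6.03 and -5.63 at 1 month, 0.49 and -5.58 at 5 months, and -4.79 and -4.19 in primary hepatocytes. One 5-month array was near the dimmer Lin- BM array and the other near the 1-month arrays. Ltf levels were 3.23 and -1.11 in Lin- BM cells, -4.86 and -4.74 at 1 month, -2.30 and -7.46 at 5 months, and -7.08 and -6.46 in primary hepatocytes. Ngp levels were 1.07 and -2.84 in Lin- BM cells, -6.88 on both 1-month arrays, -3.32 and -7.31 at 5 months, and -8.29 and -6.46 in primary hepatocytes. For Ltf and Ngp, 5-month replicate 1 lay just below the dimmer Lin- BM array and above all other hepatocyte arrays. Lyz2 levels, from the dimmer of its probes, were -2.86 and -4.67 in Lin- BM cells, -6.81 and -5.55 at 1 month, -4.60 and -4.04 at 5 months, and -5.00 and -5.39 in primary hepatocytes, and the 5-month arrays overlapped with Lin- BM cells.

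**Figure D4:**
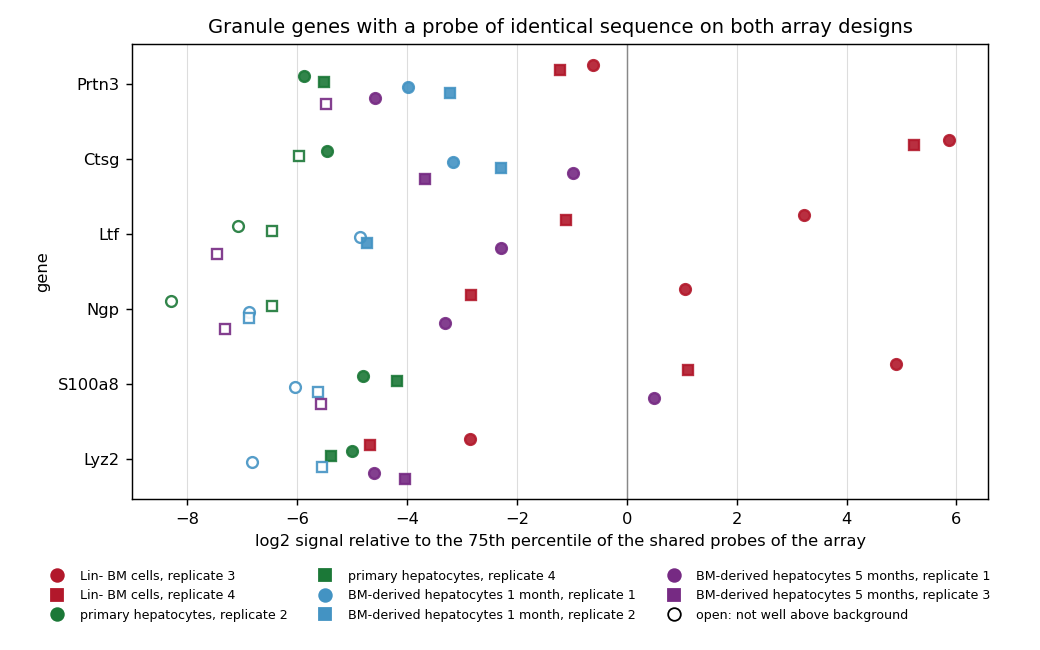
Log2 level relative to the 75th percentile of the shared probes for the 6 genes with a probe of identical sequence on both designs, with 1 point per array in the 4 groups and open points for spots not well above background. Lin- BM cells are highest for Ctsg (5.87 and 5.22) and Prtn3 (-0.62 and -1.22), and the 2 arrays at 5 months are far apart for S100a8 (0.49 and -5.58), Ltf and Ngp.

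Against Lin- BM cells, 5 of the 6 genes were called lower in 5-month hepatocytes and 5 of 6 in primary hepatocytes, where 37.7% and 38.1% of 9227 genes were called lower and 29.3% were called higher in each. The comparisons share the Lin- BM arrays. Ltf and Ngp passed the filter on dim probes only through Lin- BM cells, so that their calls describe them and do not support a direction. The Ctsg change was -7.87 at 5 months (SE 0.84, limma adjusted p = 0.000258) and -11.26 in primary hepatocytes (limma adjusted p = 5.14e-05). The Prtn3 change was -4.11 (SE 0.42, limma adjusted p = 0.000223) and -4.77 (limma adjusted p = 0.000106). In primary hepatocytes Ltf was at least 131.5-fold lower and Ngp at least 34.0-fold lower.

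The remaining calls against Lin- BM cells were lost when any 1 of several arrays was left out. At 5 months the changes were -5.94 for Ltf, -5.55 for S100a8 and -4.43 for Ngp (limma adjusted p = 0.0282, 0.0437 and 0.0481). All 3 calls were lost without Lin- BM replicate 3 (changes of -3.77, -3.66 and -2.47) or without 5-month replicate 3 (-3.36, -2.52 and -2.43), and those of S100a8 and Ngp were also lost without either array of primary hepatocytes or of 1-month hepatocytes. In primary hepatocytes the calls of Ltf, S100a8 and Ngp were lost without Lin- BM replicate 3 (adjusted p = 0.0547, 0.0869 and 0.0639), and those of S100a8 and Ngp without primary replicate 2 (adjusted p = 0.0576 and 0.0596). Lyz2 was called in neither comparison, at -0.56 (SE 0.67, limma adjusted p = 0.484) and -1.43 (limma adjusted p = 0.0973), although it passed the threshold in primary hepatocytes without Lin- BM replicate 4, at -2.34. Ctsg and Prtn3 were called in both comparisons whichever array was left out.

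Between hepatocyte groups, Prtn3 was the only one of the 6 genes called. It was 4.25-fold higher at 1 month than in primary hepatocytes (log2 change 2.09, SE 0.42, limma adjusted p = 0.0219), where 11.6% of 9227 genes were called higher and 5.1% lower. The call was lost without primary replicate 2 (1.90), primary replicate 4 (2.27) or 1-month replicate 2 (1.71). Ctsg differed by 2.98 (SE 0.84, limma adjusted p = 0.0565). From 1 to 5 months 0 of the 6 genes were called, where 5.81% were called higher and 11.3% lower, and the change of Prtn3 was -1.43 (SE 0.42, limma adjusted p = 0.0627). Lyz2 and S100a8 were not well above background on either 1-month array. At 5 months Lyz2 was at least 2.52-fold higher, without passing the threshold (limma adjusted p = 0.101 among single probes). The S100a8 change of 3.29 did not pass it either (limma adjusted p = 0.286 among single probes). It rested on 5-month replicate 1 (level 0.49), since replicate 3 (-5.58) was not well above background.

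The lists around these genes give the setting of the 1-month comparison, with 26.5% of all genes called lower. Of other azurophil granule genes, 3 of 6 tested were called lower and 1 higher (median -2.45), among them Prss57, a granule serine protease, which was at least 66.8-fold lower, and Srgn, the proteoglycan that retains granule proteins, at -4.30 (SE 0.42, limma adjusted p = 0.00172). Of other secondary granule genes, 4 of 6 were lower and 0 higher (median -4.33, or -3.39 with 3 genes at their bounds), including Chil3 at -6.19 (limma adjusted p = 0.0142) and Mmp8 at least 19.8-fold lower. Lcn2, which hepatocytes can also make, was not called (-0.73). Of the inhibitors of granule proteases, 2 of 6 were lower and 0 higher (median -2.0). They were Slpi, which inhibits elastase and cathepsin G, at -7.70 (limma adjusted p = 0.00305), and Serpinb1a, a cytosolic inhibitor of the same proteases, at -1.95 (limma adjusted p = 0.0141).

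All 6 subunits and partners of the NADPH oxidase, which makes superoxide, were called lower (median -4.79), with Rac2 at -7.10 (limma adjusted p = 0.000849). Of myeloid receptors, 10 of 16 were lower and 0 higher (median -3.24, or -2.82 with 6 at their bounds), with Csf3r, the receptor of G-CSF, at least 11.6-fold lower. These counts used the brightest probe of a gene. Dimmer probes of Fcgr3 (2.14) and Csf2rb (0.90) were called higher among single probes (limma adjusted p = 0.0128 and 0.0488). The probes used gave -2.09 for Fcgr3, not called, and -2.28 for Csf2rb. Of 7 transcription factors of the lineage, 3 were lower and 2 higher. Myb, the progenitor factor, was at least 1770-fold lower and Gfi1, a repressor needed for neutrophils, at least 36.9-fold lower. Cebpa, which hepatocytes also use, rose by 2.79 (limma adjusted p = 0.00344). The probe of Cebpe, the factor of secondary granules, rose by 1.17 (limma adjusted p = 0.0443). On the second slide a Cebpe probe was bright in primary hepatocytes as well, with a mean log2 level of 4.80. Whether these probes read Cebpe RNA in hepatocytes was not tested.

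Lists of other cells did not all fall. Pan-leukocyte genes were lower in 8 of 8 cases (median -6.29), with Ptprc at -7.41 (limma adjusted p = 0.00247). Macrophage genes had 5 of 11 called higher and 2 lower (median 2.51), with Clec4f, a marker of Kupffer cells, at least 73.2-fold higher. The 2 called lower were Cd68 (-2.12) and Mpeg1 (-2.11), and Adgre1 (0.93) was not called. Between the 1-month arrays, macrophage genes had a median difference, replicate 1 minus replicate 2, of -2.42 on the log2 scale, and Lyz2 was 6.85-fold brighter on replicate 2, the widest gap among the granule gene probes that were well above background on both arrays. Their part in the Lyz2 signal was not tested. Against primary hepatocytes, 0 genes of these lists were called at 5 months, and macrophage genes had a median of 0.95, pan-leukocyte genes of 0.74 and oxidase genes of 1.02.

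The genes whose pattern over the 8 arrays was most like the mean of the 6 shared granule genes were named by the Euclidean distance between centred log2 levels over 9219 genes. They were Mmp8 (1.60), Inpp4b (1.63), Chil3 (1.86), Padi4 (1.93) and Gm1966 (1.95). Of the granule genes themselves, Ngp lay nearest to the mean (1.73), then Ltf (2.59), Prtn3 (3.83), S100a8 (4.05), Ctsg (5.03) and Lyz2 (6.08). Mmp8 had levels of 1.47 and -2.79 in Lin- BM cells, -6.78 and -6.91 at 1 month, -3.93 and -7.64 at 5 months, and -7.77 and -7.88 in primary hepatocytes. Its gap between the Lin- BM arrays and its single high 5-month array resembled those of Ltf and Ngp. Mmp8 was chosen by its likeness to a mean that includes these genes, so this resemblance follows from the choice.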

How the data were processed

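The authors extracted the arrays with Agilent Feature Extraction 11.5.1.1 and deposited, for each array, background-subtracted signals as intensities on a linear scale. They also deposited values processed in GeneSpring GX, which on the log2 scale differed from the log2 signals by 1 constant per array for at least 99.83% of the probes within 0.02.

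Control and outlier spots (6 to 152 per array) were left out. Log2 signals were centred on each array's 75th percentile. A probe was kept where both arrays of some group lay well above background, with the brightest probe per gene. Comparisons within a slide used all 61307 or 55681 probes, and those across slides used the 13991 probes of identical sequence. Group means were estimated in R 4.3.3 (data.table version 1.17.8) by limma 3.58.1. Within a slide the fit held the groups compared, and across slides it held all 4 groups. Benjamini-Hochberg adjustment covered all genes, with an adjusted p limit of 0.05 and a log2 limit of 0.6. The steps were tested on simulated data. Where no array of a group was well above background, the fold was taken against the lowest signal above background on each array and given as "at least". In such cases the adjusted p is that of the measured values. The array number limits precision.

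Alternatives were normexp (offset 50), quantile normalization, no filter, probe means, the authors' values, the other probe set, the methods' t-test and leaving out each array. Single probes and differences between arrays were added after seeing the data. All 10 genes were named, with genes from the lists to illustrate each group. The genes and lists were chosen with earlier results of these data known. Tables were made with pandas 2.3.3 and numpy 2.4.6 and figures with matplotlib 3.10.9 in Python 3.11.15. Some items are not reported here.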

Additional observations from a re-analysis of the deposited data

How the results depend on the processing

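The 10 granule genes kept their direction in 1-month hepatocytes against Lin- BM cells under every alternative. The number called was 7 to 9 with 1 array left out, 8 with normexp, 9 with no filter, 6 of 6 with the shared probes only, and 7 and 2 for the methods' t-test without and with adjustment. For 5-month against primary hepatocytes it stayed at 0. Against Lin- BM cells the 5 calls at 5 months became 2 to 5 with 1 array left out, 3 with no filter, and 2 and 1 for the t-test without and with adjustment. The 5 calls in primary hepatocytes became 2 to 6, and 2 for the t-test in both forms. The 1 call for 1 month against primary hepatocytes became 0 to 2, 2 with no filter, and 3 and 0 for the t-test without and with adjustment. From 1 to 5 months 1 gene was called with normexp (Prtn3, -0.74) and 1 with quantile normalization (Lyz2, 2.75).

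Of 598 recomputed log2 changes, 20 turned direction, all of changes not called. Against primary hepatocytes at 5 months the values with 1 array left out ran for Elane from -0.88 to 0.46 (without primary replicate 4) and, lowest without and highest with 5-month replicate 1 alone, for Camp from -0.13 to 1.77, for S100a9 from -0.63 to 4.88 and for S100a8 from -1.10 to 4.91. At 5 months against Lin- BM cells it was Lyz2 (0.028 with normexp, and -1.46 to 0.35 with 1 array left out, highest without Lin- BM replicate 3). At 1 month against primary hepatocytes they were S100a8 (0.33) and Lyz2 (0.48) with normexp and Ngp (-0.71 with quantile normalization, and -0.42 to 1.41 with 1 array left out, lowest without primary replicate 2). From 1 to 5 months they were Ctsg (-2e-04), Ngp (-0.25) and Lyz2 (-0.31) with normexp, Ltf (0.40 with quantile normalization, 0.15 with the authors' values and 0.15 with the other probe set) and, with 1 array left out, Ltf (-2.66 to 2.51), Ctsg (-0.95 to 1.75, and -0.04 without 1-month replicate 1) and Ngp (-0.43 to 3.56), whose extremes came without 5-month replicate 1 or 3. Apart from the arrays left out, the cause was not tested. The values of Ngp, S100a8 and Lyz2 in comparisons with 1 month rest on 1-month signals not well above background and show a direction only.

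No paired analysis was possible because the groups compared share fewer than 2 replicate numbers. With 2 arrays a group, differences of the size seen between arrays of a group cannot be resolved, and signals near background at 1 month, where the arrays were dimmest, give bounds only.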

Other observations

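Genes of basophils, eosinophils and mast cells, neighbours of the neutrophil genes in the myeloid branch, were also lower at 1 month than in Lin- BM cells. Of 7 tested, 6 were called lower and 0 higher (median -6.49, or -4.53 with 5 genes at their bounds), where 26.5% of all genes were called lower. Mcpt8, the basophil protease, was at least 201.7-fold lower.

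Between the 2 arrays of primary hepatocytes, 8 probes of 7 of the granule genes could be compared, and their log2 differences, replicate 2 minus replicate 4, had a median of 0.16 and a range of -1.34 (Elane) to 0.42. Mpo, Ltf and Ngp were not well above background on either of these arrays.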
